A study of Mus musculus with 4 samples.

Results

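CTCF deserts are stretches of the mouse genome in which no CTCF binding was called in embryonic stem cells. Each autosome was divided from its first base into windows of 250 kb, and a window that lay wholly between the first and the last CTCF peak of its autosome was called a desert if it held the midpoint of no CTCF peak. This gave 1762 deserts among 9557 windows, or 18.4% (95% Wilson interval 17.7 to 19.2), and they covered 440.5 Mb of the 2389.25 Mb in scope. The remaining 7795 windows held at least 1 CTCF midpoint and are called the other windows. The deserts were thus chosen by measured CTCF peaks, and their lack of CTCF is not a result, so only their RAD21 peaks, H3K4me3 peaks, genes and sequences are described as measurements.

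The cells were Bruce-4, a mouse embryonic stem cell line of the C57BL/6J strain, grown on gelatin in a medium with serum, 2i (a pair of kinase inhibitors) and LIF, which holds stem cells undifferentiated. All groups came from this 1 line, for which the labels name no treatment or genetic change, with 10000000 cells per replicate fixed in 1% formaldehyde for 10 min. Of 4 ChIP-exo libraries, 1 used an antibody against RAD21 (Abcam ab992), 1 an antibody against H3K4me3 (MilliporeSigma 04-745) and 2 an antibody against CTCF (MilliporeSigma 07-729). In ChIP-exo, DNA pulled down with a protein is digested by an exonuclease up to the crosslink, so peaks are narrow. The deposited data are 3 peak lists, 1 per antibody, of 76021 RAD21, 21624 H3K4me3 and 51793 CTCF peaks, and give for every peak its chromosome and both end positions in the build mm10. There was no replicate list and no second condition, so no test between conditions was possible, and the read depth is unknown. Intervals given here cover counting error only, and an SD over autosomes is a spread between chromosomes of the same cells, not between cultures. H3K4me3 lay within 1 kb of a gene end at 7 of 8 embryonic stem cell markers, the exception being Esrrb, and at neither of 2 olfactory and vomeronasal markers. It was also found at 2 of 5 fibroblast markers, Thy1 and Twist1, and at 2 of 4 neuronal markers, Map2 and Syt1. By midpoint Map2 and Syt1 lay in deserts, though the widest H3K4me3 peak at an end of Map2 lay outside any desert. Over all coding genes in scope, 58.4% had H3K4me3 within 1 kb of an end.

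CTCF is a zinc finger protein that binds a long DNA motif and halts the movement of cohesin along the chromosome, and the loops that result bring distant regions together. RAD21 is the subunit that closes the cohesin ring, so its peaks show where cohesin is held or loaded. H3K4me3 is histone H3 trimethylated on lysine 4, a mark of active and poised promoters, above all those rich in CpG dinucleotides. Gene-poor regions and large arrays of sensory receptor genes are known to be silent in stem cells.

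The promoter sequences of desert genes differed widely in CpG content, and 3 are printed as examples with and without H3K4me3. They were not chosen by CpG count and are not the extremes. Each runs from 250 bases before to 50 bases after the transcript start, 5′ to 3′ on the gene's strand, from RefSeq on GRCm38.p6 (the same assembly as mm10), and every CpG is in capitals. Cdc42ep3, an effector of the small GTPase Cdc42 (chr17:79355042-79355341, minus strand), and Ptbp2, a splicing regulator best known from neurons (chr3:119783339-119783638, minus strand), lay under H3K4me3 peaks. Olfr1012, an olfactory receptor gene (chr2:85760325-85760624, minus strand), did not.
Cdc42ep3: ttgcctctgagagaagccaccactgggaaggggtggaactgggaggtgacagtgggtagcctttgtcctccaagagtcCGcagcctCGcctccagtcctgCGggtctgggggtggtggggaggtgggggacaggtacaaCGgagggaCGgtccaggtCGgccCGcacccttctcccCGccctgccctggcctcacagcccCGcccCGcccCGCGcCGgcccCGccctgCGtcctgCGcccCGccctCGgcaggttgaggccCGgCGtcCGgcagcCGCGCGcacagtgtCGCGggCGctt
Ptbp2: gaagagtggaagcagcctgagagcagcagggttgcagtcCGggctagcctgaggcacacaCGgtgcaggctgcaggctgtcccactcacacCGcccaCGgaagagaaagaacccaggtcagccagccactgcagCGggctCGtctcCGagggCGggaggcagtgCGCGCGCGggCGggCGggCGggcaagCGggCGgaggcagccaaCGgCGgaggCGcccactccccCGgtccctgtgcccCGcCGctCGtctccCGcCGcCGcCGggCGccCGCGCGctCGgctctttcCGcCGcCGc
Olfr1012: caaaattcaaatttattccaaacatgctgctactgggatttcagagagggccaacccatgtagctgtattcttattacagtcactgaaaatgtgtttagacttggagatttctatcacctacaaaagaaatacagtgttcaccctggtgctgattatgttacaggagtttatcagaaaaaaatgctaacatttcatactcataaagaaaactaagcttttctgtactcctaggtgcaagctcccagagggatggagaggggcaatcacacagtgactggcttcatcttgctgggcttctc
These promoters hold 27, 36 and 0 CpG dinucleotides. Over all coding promoters in deserts, the median was 22.5 CpG for the 62 under an H3K4me3 peak and 2 CpG for the 1158 without one. In the other windows the medians were 23 CpG for 9825 promoters under H3K4me3 and 5 CpG for 8902 without. Marked promoters had nearly the same median CpG count in deserts and elsewhere, while unmarked desert promoters held fewer CpG than unmarked promoters elsewhere.

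A further pair of promoters is printed because such near-identical copies fill some of the emptiest deserts, where a short read may fit several copies. Vmn1r122 (chr7:21134079-21134378, minus strand) and Vmn1r159 (chr7:22843556-22843855, minus strand) encode vomeronasal receptors of type 1, which sense pheromones. Their promoters lie 1709477 bp apart and differ at 1 of 300 positions, shown in capitals.
Vmn1r122: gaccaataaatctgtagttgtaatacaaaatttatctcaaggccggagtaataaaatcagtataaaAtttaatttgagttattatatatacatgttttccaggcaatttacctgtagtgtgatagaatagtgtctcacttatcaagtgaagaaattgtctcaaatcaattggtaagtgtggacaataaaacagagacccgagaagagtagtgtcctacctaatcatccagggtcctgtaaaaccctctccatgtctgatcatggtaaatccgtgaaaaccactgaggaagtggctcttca
Vmn1r159: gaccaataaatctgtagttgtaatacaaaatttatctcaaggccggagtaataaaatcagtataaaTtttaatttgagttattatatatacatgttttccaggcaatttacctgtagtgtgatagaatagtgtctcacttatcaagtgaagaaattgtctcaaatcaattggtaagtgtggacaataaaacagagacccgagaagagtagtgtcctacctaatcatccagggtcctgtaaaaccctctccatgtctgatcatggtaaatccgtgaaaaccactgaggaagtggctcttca
Among the 60 Vmn1r promoters listed in the surrounding run of deserts, 45 were identical to at least 1 other over all 300 bases.

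The deserts were grouped along the chromosomes. They formed 923 runs of touching windows, of which 553 were single deserts, 188 held 2, 77 held 3 and 105 held 4 or more. Those 105 runs contained 602 of the deserts, and the longest 4 runs were of 12 deserts, or 3 Mb, each. The distance between neighbouring CTCF peaks had a median of 16898 bp over 50527 gaps. There were 1604 gaps of at least 250 kb, of which 923 held a whole desert window and 129 reached 1 Mb. The share of an autosome's windows that were deserts averaged 18% ± 4.29 (SD over 19 autosomes), with chromosome 14 highest at 25.9% and chromosome 11, a gene-dense chromosome, lowest at 8.65%.

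At the boundary of the rule stand 1293 windows with exactly 1 CTCF midpoint. The nearest CTCF midpoint outside a desert lay a median of 111586 bp from the desert's edge, and 134 bp in the closest case. The lone CTCF peaks of the 1293 windows were shorter than CTCF peaks in general, with a median length of 71 bp against 104 bp over all autosomal CTCF peaks. Lengths of 39 bp or under, the shortest classes of the list, made up 24.1% of the lone peaks and 15.0% of all.

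RAD21 peaks remained in most deserts, but few in each. At least 1 RAD21 midpoint lay in 1237 deserts, or 70.2% (68.0 to 72.3), and in 7762 other windows, or 99.6% (99.4 to 99.7), against 94.2% of all windows. RAD21 was in 97.4% (96.4 to 98.2) of the windows with 1 CTCF midpoint. Those windows held 11.8 RAD21 peaks per Mb, but only 8.45 per Mb without CTCF overlap. Part of their RAD21 thus lay at CTCF sites, which deserts lack by the rule. A desert held a median of 1 RAD21 peak, against a median of 3 in windows with 1 CTCF midpoint and 8 in all other windows. By number of peaks, 525 deserts had 0, 478 had 1, 330 had 2 and 103 had 5 or more, up to 13.

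Because RAD21 and CTCF share many sites, the choice of CTCF-free windows by itself removes the shared peaks, so the comparison was also made among RAD21 peaks that overlap no CTCF peak. Deserts held 2862 such peaks, all of their RAD21 peaks, or 6.50 per Mb, and the other windows held 29580, or 15.2 per Mb. The ratio of the densities was 0.428 (exact conditional 95% interval 0.412 to 0.445). The density was lower in deserts on 19 of 19 autosomes, with a mean ratio of 0.445 ± 0.0860 (SD over 19 autosomes) and a range of 0.295 to 0.613. RAD21 peaks without CTCF were therefore also scarcer in deserts. Windows with 1 CTCF midpoint were nearer to the deserts than to the other windows as a whole, at 8.45 such peaks per Mb.

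**Figure D1:**
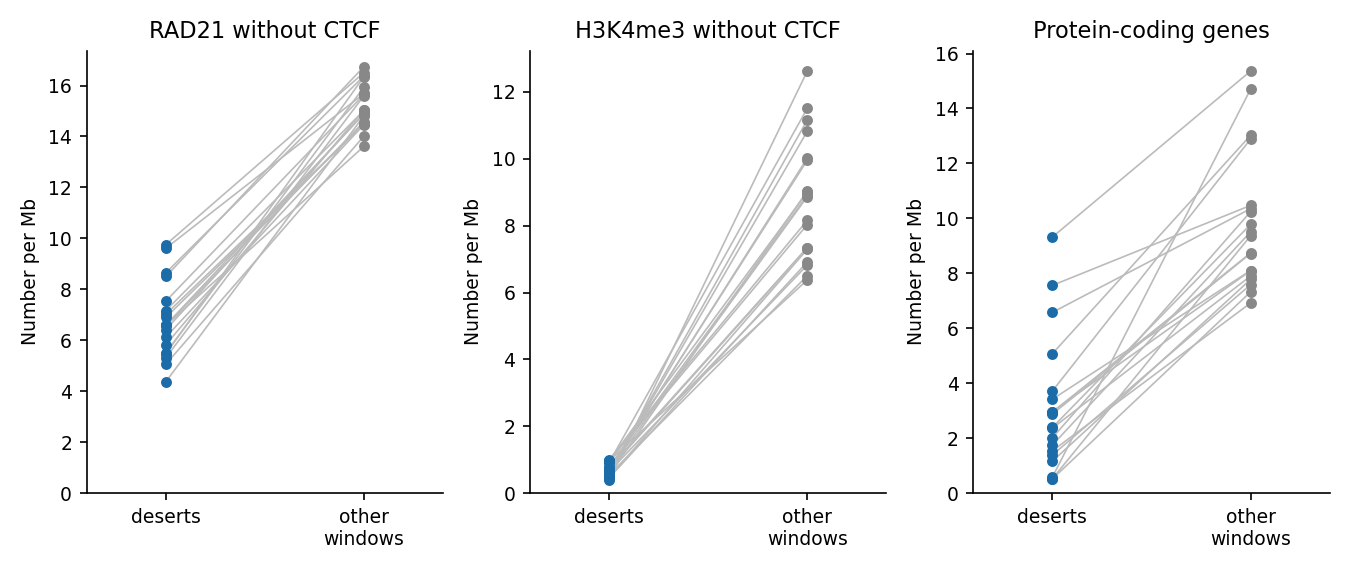
Number per Mb (y axes) of RAD21 peaks and H3K4me3 peaks without CTCF overlap and of protein-coding genes, in deserts and in other windows. Each point is 1 of 19 autosomes and lines join the same autosome; all 3 densities were lower in deserts on 19 of 19 autosomes.

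The density of CTCF-free RAD21 peaks changed with the distance to CTCF along the autosomes, counted slightly beyond the windows in scope. It was 13.8 per Mb within 5 kb of a CTCF midpoint, 20.1 per Mb from 5 to 10 kb, 18.4 per Mb from 10 to 25 kb and 14.9 per Mb from 25 to 50 kb. Farther away it was 10.4 per Mb from 50 to 100 kb, 8.74 per Mb from 100 to 150 kb, 7.52 per Mb from 150 to 250 kb and 5.41 per Mb from 250 to 500 kb. Beyond 500 kb it was 3.95 per Mb, from 280 peaks over 70.9 Mb. From 5 kb outward each bin was lower than the one before it. H3K4me3 peaks without CTCF declined more steeply, being 17.5 per Mb within 5 kb and 0.310 per Mb, or 22 peaks, beyond 500 kb. Gene density differed along the same distance, from 15.5 coding genes per Mb within 5 kb to 2.99 per Mb beyond 500 kb, and its part in the RAD21 slope was not tested.

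**Figure D2:**
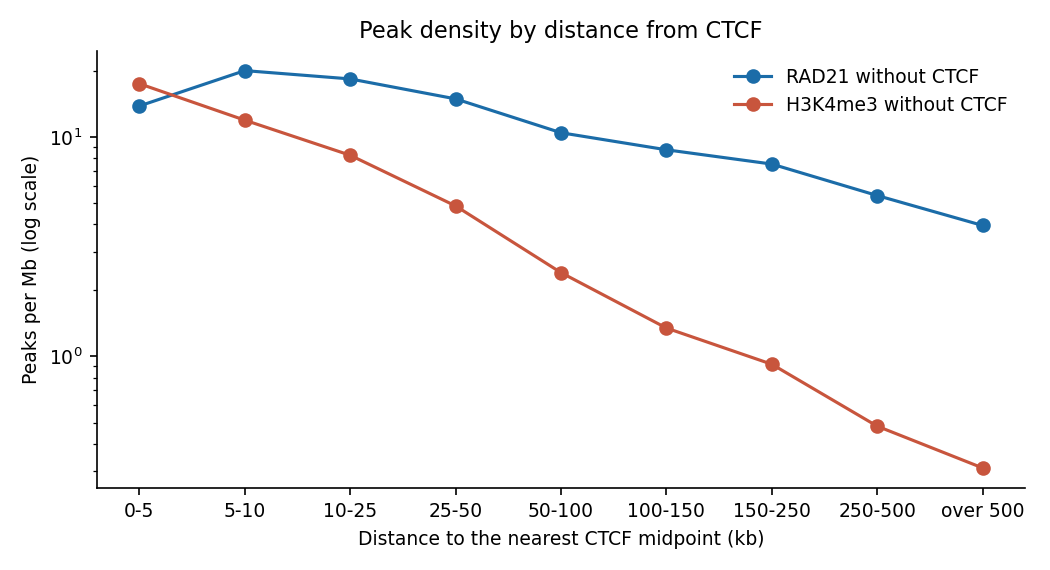
RAD21 and H3K4me3 peaks without CTCF overlap per Mb (log scale) by distance to the nearest CTCF midpoint in kb, along the autosomes. The bins reach slightly beyond the windows in scope. RAD21 was densest from 5 to 10 kb at 20.1 per Mb and least dense beyond 500 kb at 3.95 per Mb, while H3K4me3 reached 0.310 per Mb.

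RAD21 peaks in deserts were short. Their median length was 88 bp (quartiles 71 and 148), against 95 bp (71 and 158) for CTCF-free RAD21 peaks in the other windows and 183 bp for RAD21 peaks there that overlap CTCF. The shortest length in the list, 71 bp, was that of 40.6% (38.8 to 42.4) of the desert peaks and 32.5% (31.9 to 33.0) of the CTCF-free peaks elsewhere, but of 2.68% of those with CTCF. The files give no score, so length is the only ranking of calls. The median desert RAD21 peak lay 198.8 kb from the nearest CTCF midpoint. Few desert peaks, 5.35% (4.58 to 6.23), lay within 1 kb of the end of a coding or lncRNA gene, against 17.8% of CTCF-free peaks elsewhere. H3K4me3 was overlapped by 3.21% (2.63 to 3.93) of the desert peaks, against 13.6% elsewhere, and 21.8% lay inside a coding gene, against 51.7%. Genes are themselves scarcer in deserts, with 3.06 coding genes per Mb against 9.80 and 1.99 lncRNA genes per Mb against 5.85. H3K4me3 peaks without CTCF are scarcer too, at 0.706 per Mb against 8.71. The part of these densities in the differences was not tested.

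The 10 longest RAD21 peaks in deserts measured 495 to 699 bp, and 5 of them overlapped H3K4me3. None lay within 1 kb of an annotated gene end, 3 lay inside a coding gene, and their distances to CTCF ran from 180.6 to 725.0 kb. The longest, of 699 bp, was at chr10:98840378-98841076, inside the lncRNA gene Gm34346 and 73554 bp from Atp2b1, which encodes a plasma membrane calcium pump. The next, of 657 bp, overlapped H3K4me3 at chr8:98699583-98700239, 324232 bp from Cdh8, a cadherin. The 3 inside coding genes were of 572 bp in Antxr2, an anthrax toxin receptor, of 506 bp in Nkain2 and of 498 bp in Brinp3, and those in Antxr2 and Brinp3 overlapped H3K4me3. Near vomeronasal receptor genes lay a peak of 530 bp, 15827 bp from Vmn1r227, and another of 501 bp, 27586 bp from Vmn2r81, both with H3K4me3. The remaining 3 had no H3K4me3 overlap: 570 bp long at 710005 bp from the protocadherin gene Pcdh20, 565 bp long at 41739 bp from Oxsm, a mitochondrial fatty acid synthesis enzyme, and 495 bp long at 33382 bp from Cntnap2. The longest desert peaks thus lay away from annotated gene ends, both with and without H3K4me3.

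The deserts with the most RAD21 peaks were of several kinds. The single desert with 13 was chr3:63000001-63250000, which no coding gene overlapped. A pair of deserts held 10 each, namely chr11:30250001-30500000, with Sptbn1, which encodes a spectrin, and chr9:4000001-4250000, without a coding gene. Among those with 9 was chr1:14250001-14500000, with 4 H3K4me3 peaks, overlapped by Eya1, a transcriptional coactivator and phosphatase of ear and kidney development. Another with 9 was chr17:79250001-79500000, which holds Cdc42ep3 and its printed promoter. These counts were chosen after they were seen and describe single windows.

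H3K4me3 was largely missing from deserts. It was present in 249 deserts, or 14.1% (12.6 to 15.8), and in 5445 other windows, or 69.9% (68.8 to 70.9), against 59.6% of all windows. Windows with 1 CTCF midpoint lay between, at 28.0% (25.6 to 30.5). Deserts held 311 H3K4me3 peaks, or 0.706 per Mb, against 8.71 per Mb for peaks without CTCF overlap in the other windows. The ratio was 0.0810 (0.0722 to 0.0906), well under that of RAD21, and the density was lower in deserts on 19 of 19 autosomes. Of the deserts with H3K4me3, 216 also held RAD21 and 33 did not.

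**Figure D3:**
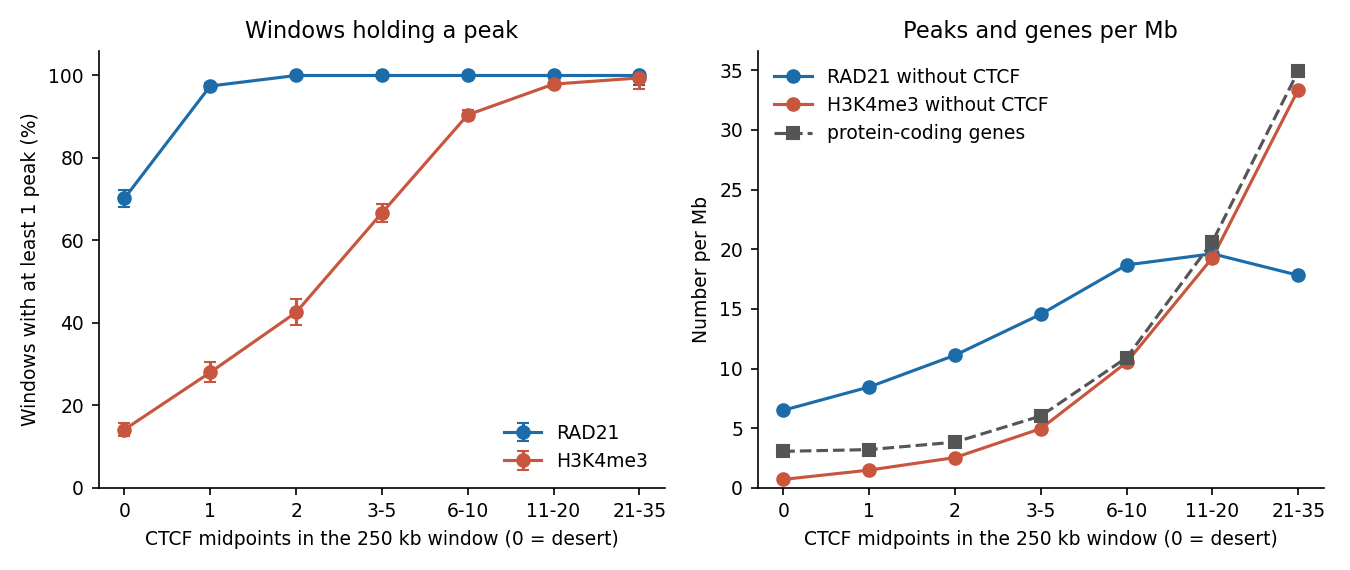
Left, share of windows (%) with at least 1 RAD21 or H3K4me3 peak by the number of CTCF midpoints in the window, with 95% Wilson intervals; right, RAD21 and H3K4me3 peaks without CTCF overlap and coding genes per Mb. Deserts, at 0, had RAD21 in 70.2% and H3K4me3 in 14.1%, and windows with 1 CTCF midpoint had 97.4% and 28.0%.

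Desert H3K4me3 peaks were wider at gene ends than away from them. The median length was 476 bp in deserts and 663 bp in the other windows without CTCF, and the shortest length, 294 bp, was that of 15.1% (11.6 to 19.5) in deserts and 7.93% elsewhere. Of the 311 peaks, 104 or 33.4% (28.4 to 38.9) lay within 1 kb of a gene end, against 63.1% in the other windows. Deserts also hold fewer genes per Mb, and the part of gene density in this difference was not tested. Those 104 had a median length of 725 bp and 43.3% (34.2 to 52.9) overlapped RAD21, whereas the other 207 had a median of 418 bp and 20.3% (15.4 to 26.3) overlapped RAD21. Longer peaks overlap others more often by their length alone, and the part of length in this difference was not tested.

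The 10 longest H3K4me3 peaks in deserts lay in or near genes with roles in transcription, splicing and signalling, and 9 lay within 1 kb of the end of a coding or lncRNA gene. The longest, of 2054 bp at chr15:50888468-50890521, was at Trps1, a GATA-type zinc finger repressor of bone and hair development. Peaks of 1906 bp at Pbx3, a homeobox cofactor of Hox proteins, and of 1837 bp at Runx1t1, a corepressor, followed, along with one of 1841 bp at Pvt1, a lncRNA gene 47637 bp away from Myc at this peak. Cdc42ep3 had 1604 bp, Ppp3ca, the catalytic subunit of calcineurin, 1558 bp, and Dyrk2, a protein kinase, 1528 bp within its gene but away from the annotated ends. Ptbp2 had 1436 bp and Rasa1, which inactivates RAS, 1390 bp. The last, of 1347 bp, lay inside Ptprd, a receptor tyrosine phosphatase of synapses, but not at its ends; the gene end near it is that of a lncRNA gene. RAD21 overlapped 3 of the 10, at Runx1t1, Cdc42ep3 and Dyrk2.

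Protein-coding genes were sparse in deserts and, where present, concentrated. By midpoint, 1347 of 20441 autosomal coding genes of RefSeq lay in deserts, or 6.59%, beside the 18.4% of windows that were deserts. That is 3.06 genes per Mb, against 9.80 per Mb in the other windows, with a ratio of 0.312 (0.295 to 0.330) and a lower density in deserts on 19 of 19 autosomes. Low gene density was not particular to deserts, since windows with 1 CTCF midpoint had 3.20 coding genes per Mb and windows with 2 had 3.83 per Mb. The ratio varied widely between autosomes, from 0.0398 to 0.722. No coding gene body touched 1061 deserts, or 60.2% (57.9 to 62.5), against 16.8% of the other windows, while 90 deserts with 5 or more coding midpoints held 729 of the 1347 genes, up to 24 in 1 desert.

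Other kinds of gene were distributed differently. The lncRNA genes resembled the coding genes, with 875 of 12273 or 7.13% in deserts. Pseudogenes were as dense in deserts as outside, at 3.69 per Mb against 3.61 per Mb, and 1625 of 8667 lay in deserts. Transfer RNA genes were nearly absent, with 8 of 385 or 2.08% in deserts (1.06 to 4.05). Of small nucleolar RNA genes, 318 of 1266 or 25.1% were in deserts, but 206 of the 318 lay in the single run of deserts on chromosome 7 described further on. That share therefore rests mainly on 1 locus and does not describe small nucleolar RNA genes in general. MicroRNA genes were few, with 37 of 1118 or 3.31%.

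Coding genes in deserts mostly lacked the promoter mark. H3K4me3 lay within 1 kb of an end in 103 of the 1347, or 7.65% (6.34 to 9.19), and in 61.9% (61.2 to 62.6) of coding genes elsewhere, against 58.4% of all. RAD21 lay at an end in 8.02% (6.68 to 9.59) of desert genes and in 41.8% elsewhere, against 39.6% of all. The difference was smaller outside most array families. Leaving out the olfactory, vomeronasal, taste receptor, secretoglobin, Pramel, prolactin, Klra and defensin families and the genes known only by a number or clone name, but keeping the Zfp genes, 99 of 396 desert genes were marked, or 25% (21 to 29.5), against 67.1% (66.4 to 67.8) of such genes elsewhere. Over all 1347 desert genes, array families included, the median length was 4092 bp, against 18425 bp for coding genes elsewhere. The part of the array families in this difference was not tested.

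The 12 desert genes with the widest H3K4me3 at an end had peaks of 1316 to 2054 bp and varied roles. Trps1 (2054 bp), Pbx3 (1906 bp) and Bnc2 (1483 bp), a zinc finger protein, regulate transcription. Gpc6 (1978 bp) encodes a glypican, a heparan sulfate proteoglycan of the cell surface, and Hs6st3 (1516 bp) an enzyme that sulfates heparan sulfate. Cdc42ep3 (1604 bp), Rabgap1 (1467 bp) and Rasa1 (1390 bp) act on small GTPases, and Lpp (1378 bp) is an adhesion-site protein. Ptbp2 (1436 bp), Gtdc1 (1316 bp), a putative glycosyltransferase, and Snurf (1736 bp), at the start of the imprinted Snrpn transcript, complete the list. Of all 103 marked genes, 63 had the peak itself inside a desert and 40 had it outside any desert while their midpoint lay in one, as for Gpc6, where a gene of 1054610 bp started outside. RAD21 was at an end in 59 of the 103.

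The lists of pluripotency genes and lineage regulators were short, and 6.59% of all coding genes lay in deserts, so few members would lie there in any case. None of 25 listed pluripotency genes lay in a desert, and 22 of them carried H3K4me3. Of 53 listed lineage regulators, 2 lay in a desert. Twist1, a mesodermal factor, lay in chr12:33750001-34000000 with 3 RAD21 peaks and 2 H3K4me3 peaks and was marked at an end. In all, 37 of the 53 were marked. Over all coding genes in scope 58.4% were marked, which is the background for both lists.

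Genes of the neuronal cell surface were also listed. Of 72 listed genes of synaptic and axonal adhesion, 19 lay in deserts, and 4 of these, Cdh7, Nlgn1, Epha5 and Ptprt, carried H3K4me3 at an end. The unmarked 15 included the cadherins Cdh8, Cdh11 and Cdh18, the contactins Cntn3, Cntn4 and Cntn6, and Dcc, a netrin receptor that steers axons. Of 29 GABA and glutamate receptor genes, 7 lay in deserts and 2 of these were marked at an end. Over the whole lists, 27 of the 72 adhesion genes and 15 of the 29 receptor genes were marked, beside 58.4% of all coding genes. The share of all coding genes in deserts was 6.59%, and these lists were made with the contents of deserts known, so their counts describe the lists and no more.

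Some deserts are the interiors of very long genes. There were 151 deserts wholly inside 108 coding genes, of which 43 had H3K4me3 at an end and 67 had it somewhere in the gene. The longest, Ptprd (2270506 bp), covered 4 deserts with 5 RAD21 peaks and 1 H3K4me3 peak in them. Cntnap2 (2241333 bp), a neurexin-related protein of axons, covered 4 deserts with 4 RAD21 peaks. Lrp1b (2058309 bp), a lipoprotein receptor, covered 6 deserts with 10 RAD21 peaks and had H3K4me3 nowhere in the gene, the only 1 of the 8 longest without it. Fhit (1611970 bp), at a common fragile site, covered 3 deserts with 6 RAD21 peaks, and Macrod2 (1997664 bp) covered 2 with 6. Lsamp (2197426 bp), Dlg2 (1973059 bp) and Nrxn3 (1612235 bp), all of neuronal membranes, covered 1 desert each, with 1, 0 and 0 RAD21 peaks. Among these 8, then, the deserts of 6 genes held RAD21. Deserts of which at least 90% lay in 1 gene numbered 176, or 9.99% of deserts, beside 661 of the 7795 other windows, so this position was common outside deserts too. Of the 176, 76.7% (69.9 to 82.3) held RAD21, against 70.5% (67.7 to 73.2) of the 1061 deserts without a coding gene. Those intervals overlap.

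Gene arrays made up a smaller class. In 110 deserts at least 3 coding genes shared a symbol stem other than Gm or LOC, the stems of genes known only by a number. Arrays of Gm or LOC genes, some of them in empty deserts, were thus not counted in this class. The same class held 399 other windows, so 21.6% of its windows were deserts, beside 18.4% of all windows. Of the 110, 63.6% (54.3 to 72.0) held RAD21 and 36.4% (28.0 to 45.7) were empty in all 3 lists. Among the deserts without a coding gene 27.9% (25.3 to 30.7) were empty, an interval that overlaps. Named families accounted for 697 of the 1347 desert genes, or 51.7%. The families with at least 10 members in deserts, other than genes known by a number, were the olfactory receptors (382 of 1102 in deserts, for example Olfr1012 and Olfr1013), the vomeronasal receptors of type 1 (114 of 226, for example Vmn1r-ps103 and Vmn1r100) and of type 2 (65 of 116, for example Vmn2r100 and Vmn2r101), and the secretoglobins (30 of 40, for example Scgb1b10 and Scgb1b12). Smaller ones were the Zfp zinc finger genes (28 of 386, with Zfp317 and Zfp352), the Pramel genes (24 of 45, with Pramel11 and Pramel14) and the prolactin family of pituitary and placental hormones (21 of 26, with Prl and Prl2b1). The smallest were the bitter taste receptors (12 of 35, with Tas2r102 and Tas2r109), the Ly49 receptors of natural killer cells (11 of 11, with Klra1 and Klra10) and the defensins of the gut (10 of 29, with Defa17 and Defa20). A further 252 of 927 genes known as Gm and a number, such as Gm10061 and Gm10228, lay in deserts. The background for these counts is the 6.59% of all coding genes that lay in deserts. The Zfp share, 7.25% (5.07 to 10.3), was near it, so Zfp genes were not particular to deserts.

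None of these families but 2 had a marked member in a desert. The exceptions were Zfp with 2 marked members of 28, against 304 of 358 elsewhere, and Gm with 4 of 252, against 162 of 675 elsewhere. RAD21 in the deserts of these families varied although nearly all their members lacked the mark. Deserts with olfactory receptors held 7.43 RAD21 peaks per Mb, against 6.50 per Mb over all deserts, and 16.7% of those 42 deserts were empty. Deserts with type 1 vomeronasal receptors held 4.35 per Mb and 60.9% of 23 were empty, and those with type 2 receptors held 4.55 per Mb and 44.8% of 29 were empty. Secretoglobin deserts held 5.33 per Mb, prolactin deserts 4.80 per Mb, Zfp deserts 3.60 per Mb and Pramel deserts 2.22 per Mb.

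**Figure D4:**
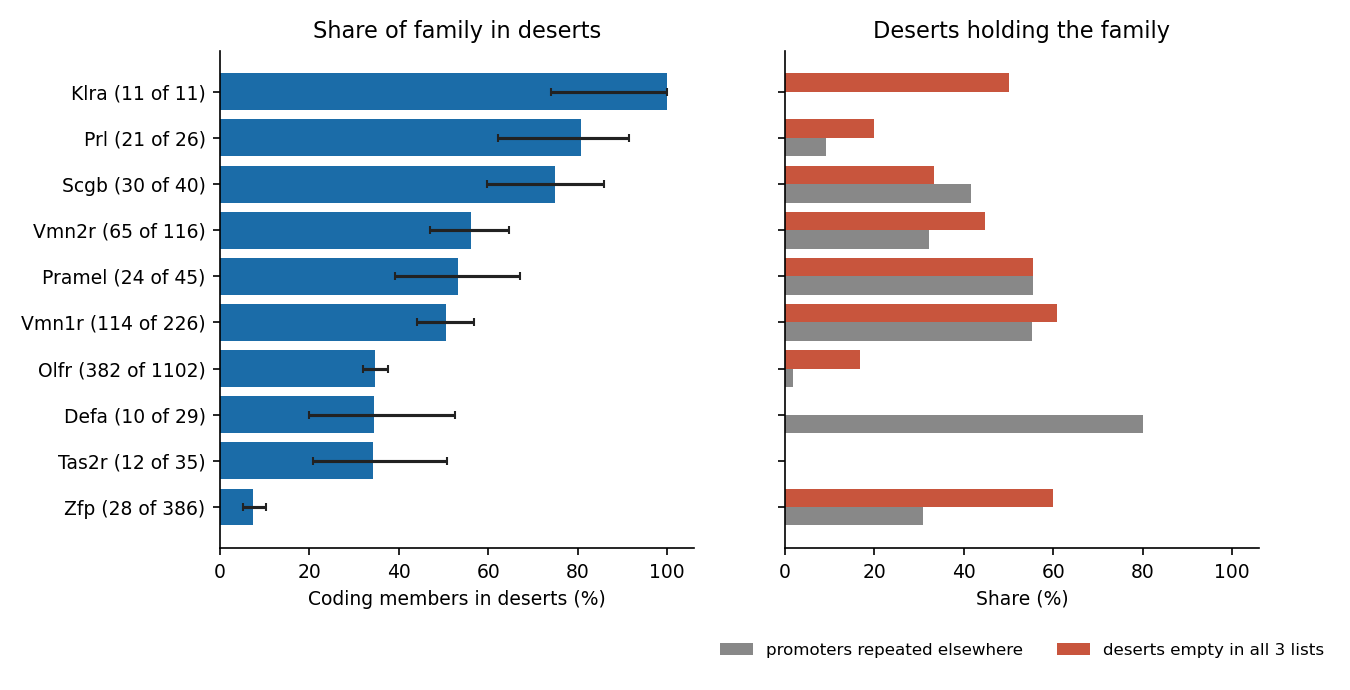
Left, the share of each family's coding members that lay in deserts, with 95% Wilson intervals. Right, for the deserts that hold the family, the share empty in all 3 lists and the share of the family's desert promoters whose sequence is repeated at another listed promoter; 60.9% and 55.1% for Vmn1r stand beside 16.7% and 1.85% for Olfr.

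Windows empty in all 3 lists may be places to which short reads cannot be assigned. There were 492 empty deserts, or 27.9% (25.9 to 30.1), while neither RAD21 nor H3K4me3 was called in 30 other windows, or 0.385% (0.270 to 0.549), and in 5.46% of all windows. They fell into 349 runs, 276 of them of 1 window and 13 of 4 or more. With no genome sequence to measure mappability, the repetition of promoters was used in its place. A promoter was called repeated if at least 50% of its stretches of 50 bases also occurred at another listed promoter at least 1000 bp away, and 31215 promoters in scope were compared, none of them on chromosome 18.

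Repeated promoters were concentrated in the empty deserts. Of 736 promoters in them 327 were repeated, or 44.4% (40.9 to 48.0), against 63 of 1279, or 4.93% (3.87 to 6.25), in deserts with RAD21 or H3K4me3 and 1.36% (1.24 to 1.5) in the other windows. Many of the 327 are copies in a few arrays, with 67 in the empty run chr7:20250001-23250000 and 38 in the empty run chr14:6000001-7500000. Copies within an array are not independent, and the intervals do not allow for this. By window, 41.3% of the 213 empty deserts with a listed promoter had a repeated one, 6.47% of 510 deserts with peaks and 3.27% of 6055 other windows. Read from the other side, the 121 deserts with a repeated promoter held RAD21 in 25.6% (18.7 to 34.1) and 1.88 RAD21 peaks per Mb. The 602 deserts with listed promoters, none of them called repeated, held RAD21 in 76.9% (73.4 to 80.1) and 8.12 per Mb. The 1039 deserts without a listed promoter, for which this measure says nothing, held RAD21 in 71.5% and 6.09 per Mb. Repetition thus moved with emptiness, but 125 deserts with only single promoters were empty too, and a lack of peaks in a repeated region does not show a lack of protein.

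Families differed in this measure. Repeated promoters made up 55.1% of 107 Vmn1r promoters in deserts, against 12.1% of 99 in the other windows, and 83.8% of the 68 in empty deserts. For Vmn2r the shares were 32.3% in deserts and 8.16% elsewhere, for Scgb 41.7% and 0%, for Pramel 55.6% and 5.56%, and for Zfp 30.8% and 3.01%. Repetition did not go with empty deserts in every family, as 5 of 13 Pramel promoters in empty deserts were repeated, or 38.5%, against 10 of 18 in all deserts. Olfr promoters were seldom repeated, at 1.85% in deserts and 1.62% elsewhere, so the olfactory receptor arrays differed from the Vmn1r arrays in this measure.

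The longest runs show both kinds of desert, with 3 runs of 9 deserts sharing the place of the tenth. All 3 are given here, which makes 12 runs. In the run chr7:20250001-23250000 all 12 deserts were empty, and its 76 coding genes included 62 Vmn1r genes such as Vmn1r122 and Vmn1r159, printed earlier, with 67 of 73 promoters repeated. In chr7:7250001-10250000, with 25 coding genes, all Vmn2r genes but Gm10302 and Clcn4, which encodes a chloride transporter, 11 of 12 deserts were empty and there was 1 RAD21 peak, with 21 of 34 promoters repeated. The secretoglobin run chr7:31250001-33750000, with 30 coding genes, had 12 RAD21 peaks, 4 of 10 deserts empty and 10 of 25 promoters repeated. These 3 arrays, all on chromosome 7, thus ranged from no RAD21 to 4.80 RAD21 peaks per Mb.

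Of the 12 runs, 8 have at most 3 coding gene midpoints, and each of these held RAD21. The run chr3:45750001-48750000, whose only coding gene is Pabpc4l, held 18 RAD21 peaks, or 6 per Mb, and chr13:86500001-89500000, with Edil3, an extracellular matrix protein, held 12, or 4 per Mb. The run chr1:144500001-147000000 held 15 RAD21 and 4 H3K4me3 peaks around Rgs18, Rgs21 and Brinp3. In chr4:77750001-80500000, into which Ptprd reaches, there were 10 RAD21 peaks in 11 deserts, and in chr16:81500001-83750000, into which the neural adhesion gene Ncam2 reaches, there were 12 in 9 deserts. The runs chr14:81750001-84250000 and chr18:17000001-19500000 touched no coding gene and held 7 and 13 RAD21 peaks, and chr5:78250001-80500000 held 5. Each of these 8 runs also had empty deserts, between 2 and 5.

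**Figure D5:**
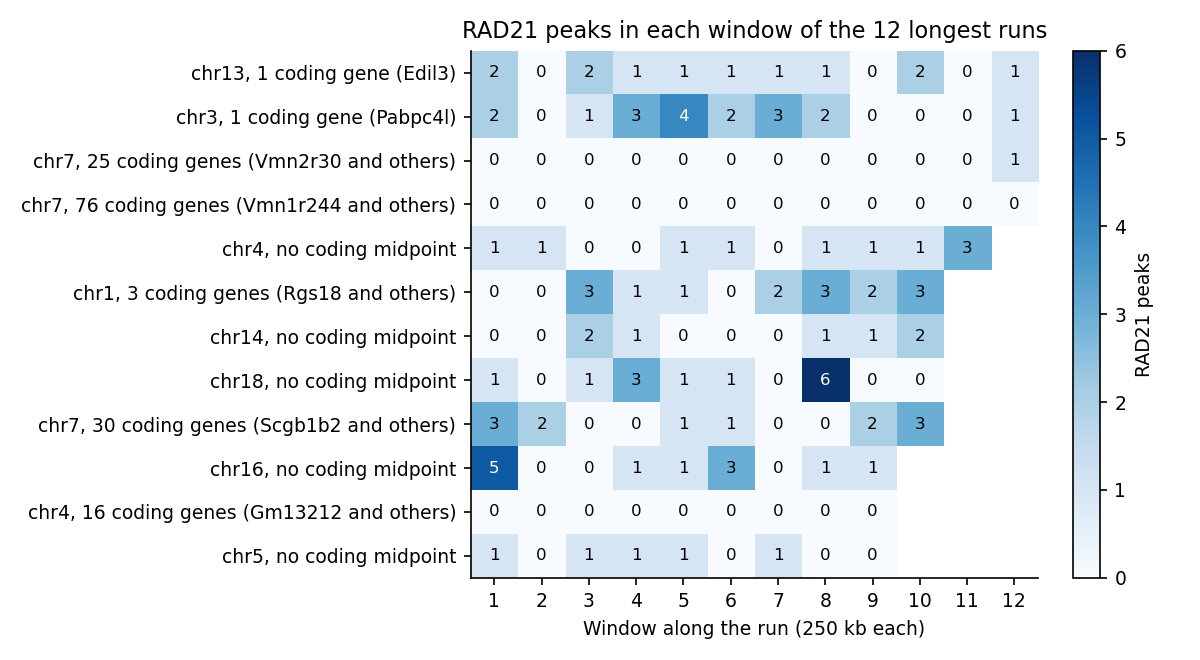
Number of RAD21 peaks in each 250 kb window along the 12 longest runs of touching deserts, with 1 row per run, named by chromosome and coding gene midpoints. The 12 windows of the Vmn1r run on chromosome 7 all had 0, against 18 peaks over the 12 windows of the Pabpc4l run on chromosome 3.

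Further long runs with mostly empty deserts held arrays. In chr4:145500001-147750000 all 9 deserts were empty, with 16 coding genes, mostly Zfp genes, of which 4 of 24 listed promoters were repeated. In chr14:41500001-43500000, 7 of 8 deserts were empty and 21 of 40 promoters were repeated among 25 coding genes known by numbers. In chr2:175000001-177000000, 23 of 29 promoters were repeated. In the Zfp run on chromosome 4, then, all deserts were empty although few promoters were repeated by this measure. Empty runs of 4 deserts without any coding gene midpoint or listed promoter also occurred, at chr1:147500001-148500000, chr2:99750001-100750000 and chr6:74500001-75500000.

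A pair of desert runs on chromosome 7 covers the imprinted domain in which the paternal chromosome makes a long host transcript, Snhg14, that is processed to small nucleolar RNAs. The run chr7:59250001-60000000 consists of 3 deserts with 206 annotated snoRNA genes, which are repeated in tandem, and with Ube3a and Snurf. It held 1 RAD21 peak and no H3K4me3 peak, and 2 of the 3 deserts were empty. The H3K4me3 peak of Snurf, of 1736 bp at chr7:60003388-60005123, lay just past its edge.

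The neighbouring run chr7:60750001-62000000, of 5 deserts, held 11 of the 13 Mir344 genes in scope, 1 RAD21 peak, and 4 empty deserts. Mature sequences of its family named 3p are printed to show how the copies differ there, with the seed (bases 2 to 8) in capitals. They come from RefSeq and are given 5′ to 3′.
mmu-miR-344-3p: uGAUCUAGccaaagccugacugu
mmu-miR-344c-3p: uGAUCUAGucaaagccugacagu
mmu-miR-344d-3p: gAUAUAACcacugccagacuga
mmu-miR-344e-3p: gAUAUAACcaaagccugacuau
mmu-miR-344h-3p: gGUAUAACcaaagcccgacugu
mmu-miR-344b-3p: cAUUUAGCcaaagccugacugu
mmu-miR-344g-3p: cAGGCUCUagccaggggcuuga
Among these 3p sequences miR-344 and miR-344c share a seed, miR-344d and miR-344e share another, and miR-344h, miR-344b and miR-344g each have their own. The 5p sequences, not printed, were more alike in the seed. The same 5p seed occurs in miR-344, miR-344b, miR-344c, miR-344g, miR-344d-1 and miR-344d-3, another is shared by miR-344e and miR-344h, and miR-344d-2 has its own. A mature sequence was matched for 34 of the 37 miRNA genes in deserts.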

How the data were processed

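Per the labels' protocols, Bruce-4 cells were profiled by ChIP-exo version 6.1 and the 4 libraries gave 3 deposited peak lists. The authors deposited each list as positions only (chromosome, start and end, a unit other than a count or score), so length in bp was the only further quantity. Tools named in the submitters' processing notes, without roles, are MACS2, bedtools 2.30.0, Picard 2.27.4 and Bowtie2 2.4.5, with build mm10. Their settings, any threshold and any control library were not given in the sources available. By its name the CTCF list is a union; it belongs to the second CTCF library's record, and its source libraries are not stated. A read that fits several places may have been dropped or placed at random, and either would change peaks in repeated arrays.

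Windows, overlaps (at least 1 bp) and gene assignment (by midpoint) were computed with pandas 2.3.3, numpy 2.4.6 and scipy 1.17.1 under Python 3.11.15; matplotlib 3.10.9 drew the figures. The counting was tested on simulated data. Genes, promoters and miRNAs came from RefSeq on GRCm38.p6, matched by gene identifier. The gene annotation gives outer ends without strand or exons, so exon and intron positions were not resolved. Promoters were listed for 80.0% of coding genes in scope. Shares carry Wilson 95% intervals and density ratios exact conditional binomial intervals.

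The deserts, lists and measures were chosen with earlier results of these data known. Genes were named by rule: the 12 marked desert genes with the widest H3K4me3, the 10 longest RAD21 and H3K4me3 peaks, the 10 longest runs (12 with ties), the 8 longest genes covering a desert, families with at least 10 desert members, and pluripotency and lineage genes in deserts. A few genes that these rules would name are not reported here. Other examples were chosen after their values were seen. Alternatives changed window size and grid, the CTCF, RAD21 and H3K4me3 rows kept, the deserts kept and the gene rules.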

Additional observations from a re-analysis of the deposited data

How the results depend on the processing

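Under 64 alternatives 29 values moved by less than their counting interval (counts by less than 1.5 times), 35 moved by more and 0 reversed; all density ratios stayed below 1. Starting windows at 125 kb gave 1753 deserts and any overlap of a CTCF peak gave 1761. Windows of 100 kb gave 8655 deserts, with RAD21 in 50.8%, H3K4me3 in 11.5%, 46.9% empty, a RAD21 density ratio of 0.514, 38.4% of RAD21 peaks at the shortest length and 21.8% of coding genes marked. Windows of 500 kb gave 412 deserts, with RAD21 in 80.3%, H3K4me3 in 16.0%, 18.2% empty, a RAD21 density ratio of 0.352, a coding gene ratio of 0.334 and 3.37% of coding genes marked. Without CTCF peaks of 39 bp and under, 73.9% of deserts held RAD21, 16.1% held H3K4me3, 24.5% were empty and 9.89% of coding genes were marked. Without RAD21 peaks of the shortest length, 54.9% of deserts held RAD21 and the density ratio was 0.376. With H3K4me3 peaks above the median length only, 4.31% of deserts held one and 5.05% of coding genes were marked. Without the empty deserts, RAD21 was in 97.4% and H3K4me3 in 19.6%, the RAD21 ratio was 0.594, the coding gene ratio 0.273 and 11.1% of coding genes were marked; these shares move by construction. Without deserts that hold a repeated promoter, an alternative chosen after seeing the data, 73.5% held RAD21, 24.6% were empty, the RAD21 ratio was 0.450, the coding gene ratio 0.222 and 11.1% of coding genes were marked. Counting H3K4me3 anywhere in a gene gave 10.2% of coding genes marked; within 1 kb of a transcript start, also chosen after seeing the data, it was 8.05%. The coding gene ratio was 0.262 without Gm, LOC and RIKEN genes and 0.281 with both gene ends in deserts. Where no construction is named, the cause was not tested.

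No paired analysis was possible because each antibody has 1 peak list with no column per replicate. For the same reason a CTCF replicate could not be left out, since only a union list was analysed here. Depth and peak scores are unknown, so a missing peak shows only that none was called. Repetition was measured at promoters alone, and 1039 deserts have none listed.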

Other observations

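The X chromosome lies outside the rule, and its values were set apart because this chromosome carries its own arrays. Of 655 windows of 250 kb on X, 296 held no CTCF midpoint, or 45.2% (41.4 to 49.0), against 18.4% of autosomal windows. RAD21 was called in 104 of the 296, or 35.1% (29.9 to 40.7), H3K4me3 in 20, or 6.76% (4.42 to 10.2), and 188, or 63.5% (57.9 to 68.8), were empty in all 3 lists. The RAD21 density in them was 2.04 per Mb, against 6.50 per Mb in autosomal deserts. The number of X copies in these cells was not examined, and its part in these differences was not tested. The antigen receptor V segments, which are rearranged only in lymphocytes, lay in deserts at nearly the share of coding genes, with 24 of 374 or 6.42% (4.35 to 9.37).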
